A study of Rattus norvegicus with 11 samples.

Results

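Enzymes that cut and cross-link the extracellular matrix, and the inhibitors that hold the cutting enzymes in check, were examined in right ventricles from Sprague Dawley rats that had received monocrotaline or its vehicle. The set was defined by 6 Ensembl gene IDs, those of Mmp2, Mmp9, Mmp14, Timp1, Timp2 and Lox. Of these, 4 had a row among the 37550 rows of the count table used here. The IDs of Timp1 (ENSRNOG00000010208) and Timp2 (ENSRNOG00000003148) had none, were not replaced by any other row, and were not analysed here. Only 29682 of the rows carry Ensembl IDs, and the rest carry other IDs without gene names. A missing ID therefore does not show that the gene had no reads. The gene symbols were supplied with the 6 IDs and could not be checked, since the count table holds IDs alone and 0 of its IDs matched the RefSeq gene table (GRCr8).

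There were 6 vehicle libraries and 5 monocrotaline libraries, with replicate numbers 1 to 6 and 1, 2, 3, 4 and 6. Each was made from total RNA of a dissected right ventricle after removal of ribosomal RNA. Monocrotaline is a plant alkaloid that injures lung vessels in rats and so raises the pressure load on the right ventricle, and the comparison asks which transcripts differ in that chamber. The sources used here give no dose, time after injection, age or sex. Nothing in the labels ties a library to a separate animal, and the p-values therefore reflect only how far these libraries differ, which may be technical. With no names for the other IDs, the tissue label was not checked against marker genes, and the lists of other matrix genes and of cell type markers were not analysed here.

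The heart's matrix is built largely of fibrillar collagen made by fibroblasts and is constantly remodelled. Matrix metalloproteinases (MMPs) are zinc enzymes made as inactive proenzymes: MMP-14 sits in the cell membrane, where with the inhibitor TIMP-2 it activates the secreted gelatinase MMP-2, while the related gelatinase MMP-9 is a typical product of neutrophils and macrophages. TIMPs bind active MMPs and block them. Lysyl oxidase, encoded by Lox, acts in the other direction, oxidising lysines of collagen and elastin so that the fibres become cross-linked and stiff. Transcript counts do not show how much of an enzyme is active.

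Total counts per library ran from 9581924 to 14438355. Reads fell in 28209 to 30593 features in vehicle replicates 5 and 6 and in monocrotaline replicate 3, against 19825 to 21524 in the other 8 libraries, here called the libraries of lower detection. Levels are given as CPM, a gene's share of its library's total count, after scaling by TMM, a factor that centres most genes between libraries. The factors ran from 0.912 to 0.966 with vehicle and from 0.983 to 1.27 with monocrotaline. Without them the median log2 fold change of all tested features moved from −0.01 to 0.21, so each direction is relative to that scaling. At an adjusted p under 0.05, edgeR called 23.8% of the 15099 tested features, with 12.7% higher and 11.1% lower after monocrotaline. Monocrotaline replicate 4 was the lowest monocrotaline library in 66.8% of the 1917 features that were higher.

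Of the 4 measured genes, Lox, Mmp14 and Mmp2 were higher with monocrotaline and none was lower. This is 3 of the 3 that passed the filter on low counts, beside 12.7% of all tested features in this direction and 23.8% in either, and the few members were picked with earlier results of these data known. The rises were of unequal size: 5.85-fold for Lox, 2.40-fold for Mmp14 and 1.43-fold for Mmp2. Mmp9 was too rare to pass the filter. In bulk tissue, a larger share of cells that make a transcript and more transcript per cell cannot be told apart.

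**Figure D1:**
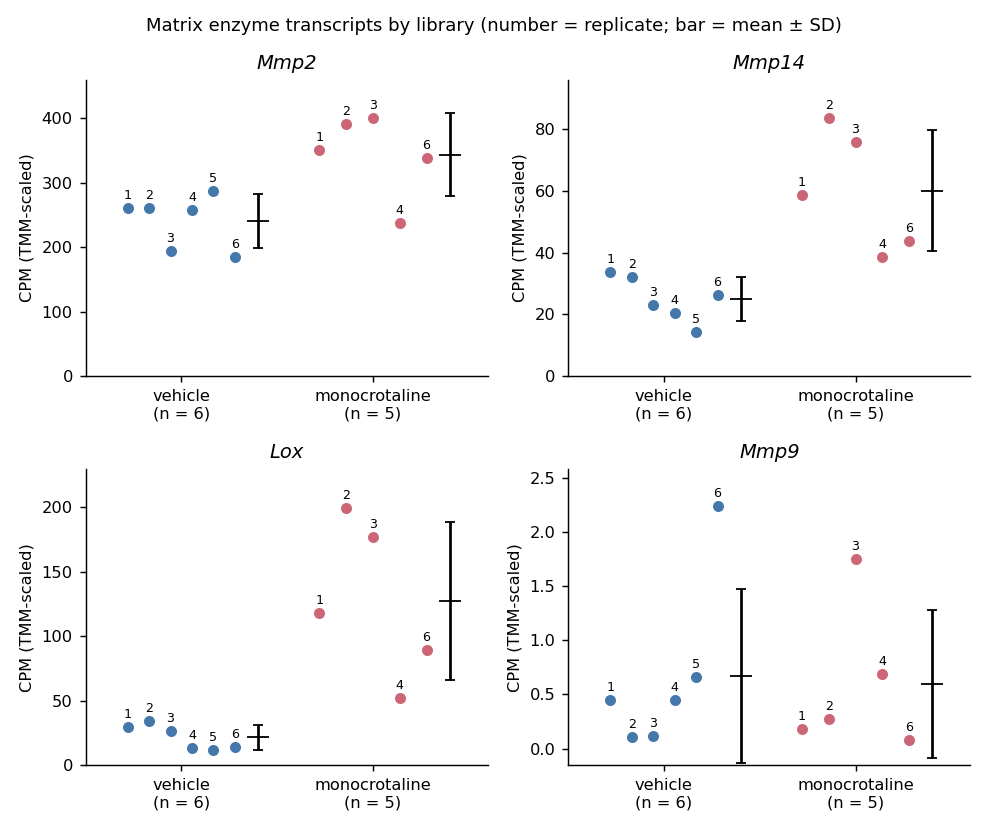
TMM-scaled CPM (vertical axes, linear) of Mmp2, Mmp14, Lox and Mmp9 in each of the 6 vehicle and 5 monocrotaline libraries; each point is a library labelled by its replicate number, and the bar gives the mean ± SD. For Lox and Mmp14 every monocrotaline point lies above every vehicle point, for Mmp2 replicate 4 of the monocrotaline group lies among the vehicle points, and for Mmp9 the highest point of each group, vehicle replicate 6 and monocrotaline replicate 3, stands far above the rest.

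The gelatinase Mmp2 (ENSRNOG00000016695) showed a small rise that 1 library did not share. Its level ran from 184 to 287 CPM across the vehicle libraries, with a median of 259. With monocrotaline it stood at 350, 391, 400 and 338 CPM in replicates 1, 2, 3 and 6, and at 238 CPM in replicate 4. Thus 4 of the 5 monocrotaline libraries lay above all vehicle libraries, while 4 of the 6 vehicle libraries lay above monocrotaline replicate 4. The means were 241 ± 41.4 CPM (SD, n = 6) and 343 ± 64.6 CPM (SD, n = 5). The log2 fold change was 0.51 with SE 0.16, a fold of 1.43 with a 95% interval of 1.12 to 1.82 (edgeR quasi-likelihood test, Benjamini-Hochberg adjusted p = 0.0341).

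The spread of Mmp2 between libraries was wider than counting error alone gives. With 1642 to 5659 reads per library, sampling alone gives a coefficient of variation near 1.99% for the average vehicle count and 1.51% for the average monocrotaline count, against observed values of 17.2% and 18.8%. The call depended on which libraries were in the fit. Leaving out any 1 library gave log2 fold changes of 0.45 to 0.64, and the adjusted p passed 0.05 without vehicle replicate 3 (0.075) or 6 (0.0611) and without monocrotaline replicate 1 (0.0684), 2 (0.0823), 3 (0.0806) or 6 (0.0576). Without monocrotaline replicate 4 the adjusted p was 0.00433, at the highest of these fold changes.

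Within the 8 libraries of lower detection the log2 fold change of Mmp2 was 0.44 with SE 0.18 (edgeR adjusted p = 0.137), in a comparison with fewer libraries. With wide or lower detection as a covariate over all 11 libraries, it was 0.52 with SE 0.165 (edgeR adjusted p = 0.0324). With no filter on low counts it was 0.51, and its adjusted p was 0.0715 over 33648 features. The small rise of Mmp2 therefore lay close to the threshold under these settings.

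Mmp14 (ENSRNOG00000010947), the membrane-bound activator of MMP-2, was higher with monocrotaline in every library. The vehicle libraries held 14.3 to 33.7 CPM, with a median of 24.7. The monocrotaline libraries held 58.8, 83.5, 75.8, 38.5 and 43.7 CPM in replicates 1, 2, 3, 4 and 6. The groups did not overlap, which was also the case for 6.08% of all tested features in this direction, but the gap between the nearest libraries was only 4.79 CPM. Replicates 4 and 6 lay nearest to vehicle, and replicates 2 and 3 farthest from it.

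The mean of Mmp14 was 25.0 ± 7.26 CPM with vehicle (SD, n = 6) and 60.1 ± 19.6 CPM with monocrotaline (SD, n = 5). Its log2 fold change was 1.27 with SE 0.24, a fold of 2.40 with a 95% interval of 1.67 to 3.46 (edgeR, adjusted p = 0.00378). Leaving out any 1 library gave log2 fold changes of 1.12 to 1.41, with adjusted p of at most 0.0117. In the libraries of lower detection it was 1.04 with SE 0.26 (edgeR adjusted p = 0.0281). The rise of Mmp14 passed the threshold in each of these fits.

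Lox (ENSRNOG00000014426), the collagen cross-linking enzyme, had the largest rise of the 4. Vehicle replicates 1, 2 and 3 held 29.8, 34.5 and 26.4 CPM, and replicates 4, 5 and 6 held 13.7, 12.3 and 14.0 CPM. The vehicle libraries thus fell into a higher and a lower set, with no library between 14.0 and 26.4 CPM. The lower set holds both vehicle libraries of wide detection and also replicate 4, which is of lower detection.

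With monocrotaline, Lox stood at 118, 199.5, 177, 51.9 and 89.1 CPM in replicates 1, 2, 3, 4 and 6. All 5 lay above the highest vehicle library, by at least 17.4 CPM. The lowest, replicate 4, stood at 2.38 times the vehicle mean and the highest, replicate 2, at 9.16 times. In both groups, then, Lox was higher in replicates 1, 2 and 3 than in the libraries of higher number. Whether a batch or a pairing lies behind this order by number was not tested, and libraries of equal number are compared in the last section.

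Lox averaged 21.8 ± 9.61 CPM (SD, n = 6) and 127 ± 61.0 CPM (SD, n = 5), and its log2 fold change was 2.55 with an SE of 0.38 (edgeR, adjusted p = 0.00128). As a fold this was 5.85, with a 95% interval of 3.31 to 10.3. Of the 15099 tested features, 48 had a larger log2 fold change. Leaving out any 1 library gave log2 fold changes of 2.33 to 2.77, with adjusted p of at most 0.00389. In the libraries of lower detection the value was 2.14 with SE 0.43 (edgeR adjusted p = 0.0161). Lox passed the threshold and rose by more than Mmp14 or Mmp2 in each of these fits.

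**Figure D2:**
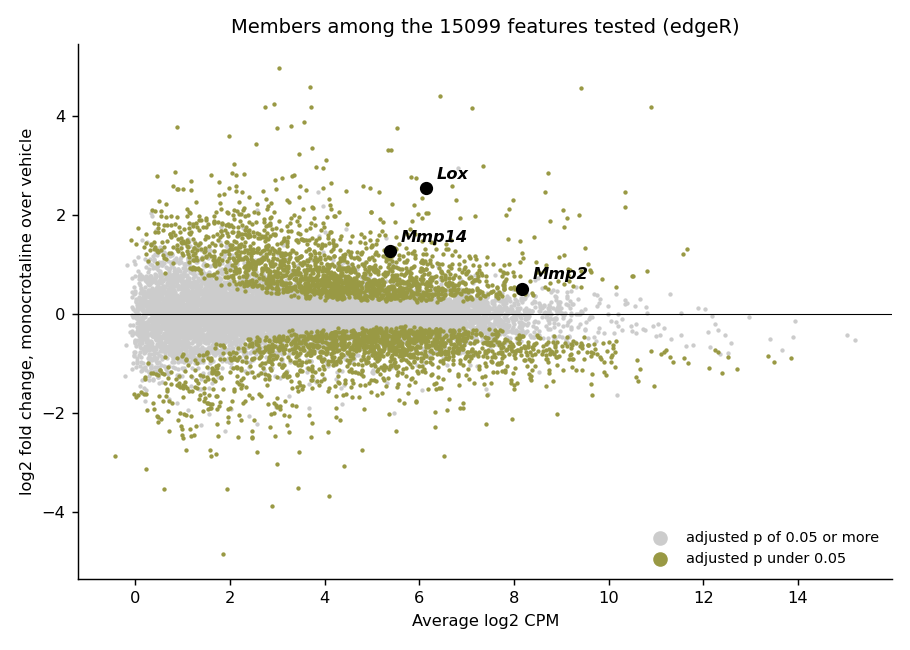
Average log2 CPM (horizontal) against the log2 fold change of monocrotaline over vehicle (vertical) for the 15099 tested features, coloured by whether the edgeR adjusted p was under 0.05, with Lox, Mmp14 and Mmp2 as black points. The 3 lie above zero at 2.55, 1.27 and 0.51, with Lox near the upper edge of the cloud and Mmp2 close to the zone of features not called.

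Because both counts of a ratio come from 1 library, ratios between members need no scaling factor. Their level also depends on transcript length, so only their difference between groups is given. Reads of Lox per read of Mmp2 ran from 0.0428 to 0.136 in the vehicle libraries. With monocrotaline the ratio was 0.338, 0.510, 0.442, 0.218 and 0.263 in replicates 1, 2, 3, 4 and 6. The means were 0.0925 ± 0.0407 (SD, n = 6) and 0.354 ± 0.122 (SD, n = 5), a 3.83-fold difference with no overlap. In monocrotaline replicate 4, where Mmp2 itself stood at 0.988 times the vehicle mean, Lox was thus still higher relative to Mmp2 than in any vehicle library. The level of Lox alone also separated the groups, as did that of 6.08% of all tested features in this direction. No such share was computed for ratios, so how often a ratio separates the groups is not known here.

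Reads of Lox per read of Mmp14 separated the groups as well. They ran from 0.534 to 1.14 with vehicle and from 1.35 to 2.39 with monocrotaline, with means of 0.860 ± 0.233 (SD, n = 6) and 2.02 ± 0.414 (SD, n = 5). The lowest monocrotaline ratio was that of replicate 4 and the other 4 lay at 2.01 or above. Reads of Mmp14 per read of Mmp2 overlapped between the groups, from 0.0498 to 0.143 with vehicle and from 0.129 to 0.213 with monocrotaline. Their means were 0.107 ± 0.0351 (SD, n = 6) and 0.172 ± 0.0316 (SD, n = 5). Monocrotaline replicate 6, at 0.129, lay within the vehicle range and above the vehicle mean. In that library Mmp14 stood at 1.75 times its vehicle mean and Mmp2 at 1.41 times, and in the other 4 monocrotaline libraries Mmp14 was likewise further above its vehicle mean than Mmp2. These ratios were not tested, since the genes were chosen together with results known.

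**Figure D3:**
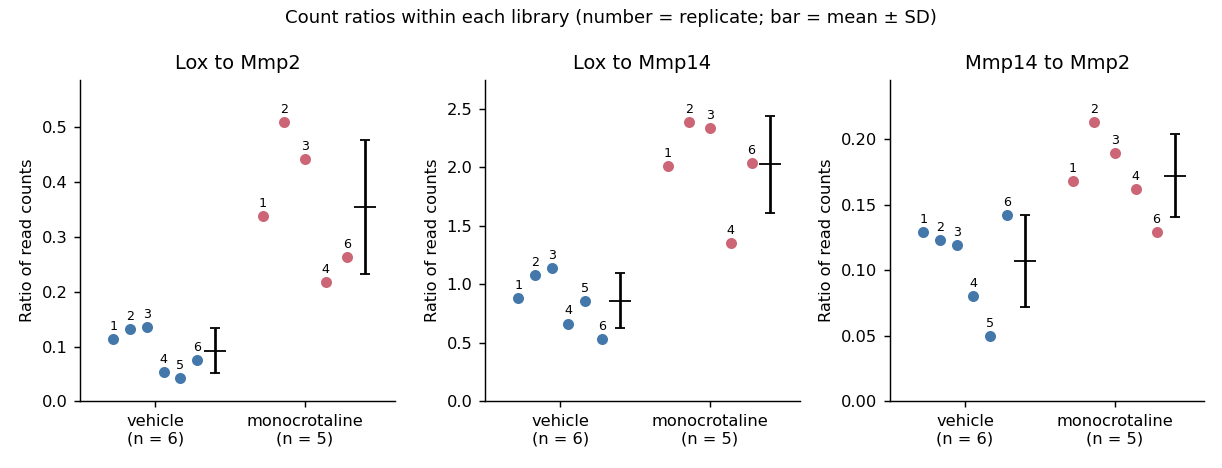
Ratios of read counts between pairs of members within each library (vertical axes, linear, from 0), by group, with replicate numbers and the mean ± SD. Lox per Mmp2 and Lox per Mmp14 are higher in all 5 monocrotaline libraries than in all 6 vehicle libraries, whereas Mmp14 per Mmp2 overlaps between groups.

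The 3 genes shared an order among the monocrotaline libraries. Replicates 2 and 3 held the highest levels and replicate 4 the lowest for Lox, Mmp14 and Mmp2, with replicate 1 above replicate 6 each time. The place of replicate 4 is that of 66.8% of all features that were higher, and the highest library was replicate 3 in 43.2% of them, replicate 1 in 22.4% and replicate 2 in 21.3%. Among the vehicle libraries the 3 genes did not share such an order. For Lox and Mmp14, replicates 1 and 2 held the highest levels and replicates 4 and 5 the lowest, but Mmp2 did not follow. Vehicle replicate 5 was the highest for Mmp2 and the lowest for Mmp14 and Lox, with log2 CPM of 0.28 above its group mean for Mmp2 and −0.74 and −0.69 for Mmp14 and Lox.

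The spread between libraries also differed between the genes. The coefficient of variation of Lox was 44.1% with vehicle and 48.0% with monocrotaline, that of Mmp14 29.1% and 32.6%, and that of Mmp2 17.2% and 18.8%. Each gene varied about as much, relative to its mean, in one group as in the other. Counting at the mean read numbers of these groups gives coefficients of at most 6.64% for Lox and 6.19% for Mmp14.

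Profiles over the 11 libraries were compared as the root mean square difference in log2 CPM, each gene centred on its own vehicle mean, so a distance of 0 is an identical profile. The members were not close to each other, at 0.65 between Mmp2 and Mmp14, 0.91 between Mmp14 and Lox and 1.46 between Mmp2 and Lox. The tested Ensembl ID nearest to Mmp2 was ENSRNOG00000009625, at a distance of 0.10 and with a log2 fold change of 0.47 (SE 0.15, edgeR adjusted p = 0.0433). The ID nearest to Mmp14 was ENSRNOG00000008016, at 0.31 and with a log2 fold change of 0.93 (SE 0.21, edgeR adjusted p = 0.00903). The nearest ID to Lox was farther away, at 0.39. These distances are a description that includes the group difference itself, and the files do not name the IDs.

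The gelatinase Mmp9 (ENSRNOG00000017539) was barely detected in either group. The counts were 6, 1, 1, 5, 7 and 20 reads in vehicle replicates 1 to 6, and 2, 4, 23, 8 and 1 reads in monocrotaline replicates 1, 2, 3, 4 and 6. The highest library of each group was one of wide detection, and the third such library, vehicle replicate 5, held 7 reads. Summed, these 3 libraries held 50 Mmp9 reads in 30846393 counts, or 1.62 CPM, and the other 8 held 28 in 93710090, or 0.299 CPM. The part of wide detection in the Mmp9 level was not tested.

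The mean of Mmp9 was 0.671 ± 0.800 CPM with vehicle (SD, n = 6) and 0.595 ± 0.686 CPM with monocrotaline (SD, n = 5), and the exact two-sided permutation p over 462 splits was 0.814. Within the libraries of lower detection the means were 0.280 ± 0.196 CPM (SD, n = 4) and 0.306 ± 0.267 CPM (SD, n = 4; exact permutation p = 0.914). A fit with no filter on low counts gave a log2 fold change of −0.18 with a 95% interval of −2.11 to 1.76 (edgeR, adjusted p = 0.976). A change of Mmp9 was not detectable at this depth, and the interval is wide enough to hold a rise as large as that of Mmp14. A single library's count is itself imprecise: 5 reads carry a 95% exact Poisson interval of 1.62 to 11.7 reads, which covers counting error only.

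**Figure D4:**
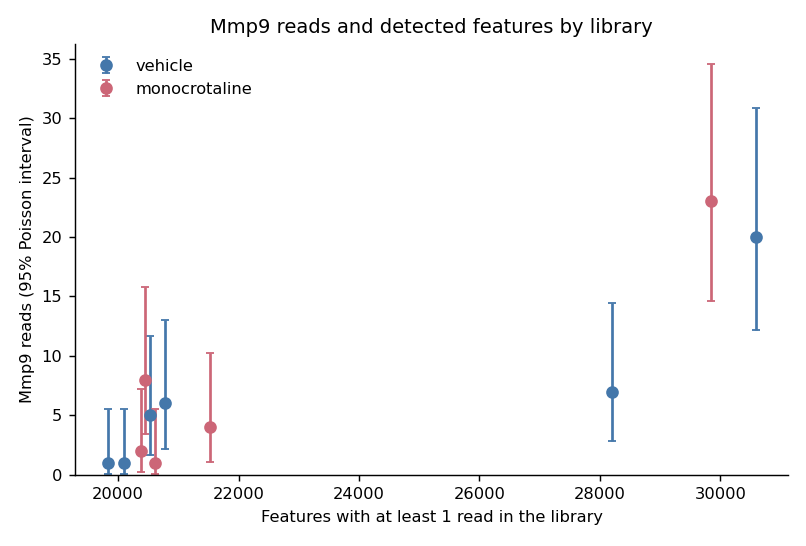
Mmp9 reads per library (vertical, linear, with 95% exact Poisson intervals for counting error) against the number of features with at least 1 read in that library (horizontal), by group. The 8 libraries with 19825 to 21524 features hold 1 to 8 reads, and the 3 with 28209 to 30593 features hold 7, 20 and 23.

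The authors' deposited table, which is their own comparison of both groups on 16646 features, lists log2 fold changes of 2.54 for Lox, 1.26 for Mmp14 and 0.51 for Mmp2. Its FDR values are 4.21e-09, 2.56e-05 and 0.0185 in the same order. With the authors' filter on low counts, the edgeR quasi-likelihood fit used here gave adjusted p of 0.00181, 0.00513 and 0.0404. The filter alone thus did not bring the values together, and what sets them apart was not tested. As the comparison is of the same groups, its fold changes are not independent of those above. Mmp9 has no row in the authors' deposited table.

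**Figure D5:**
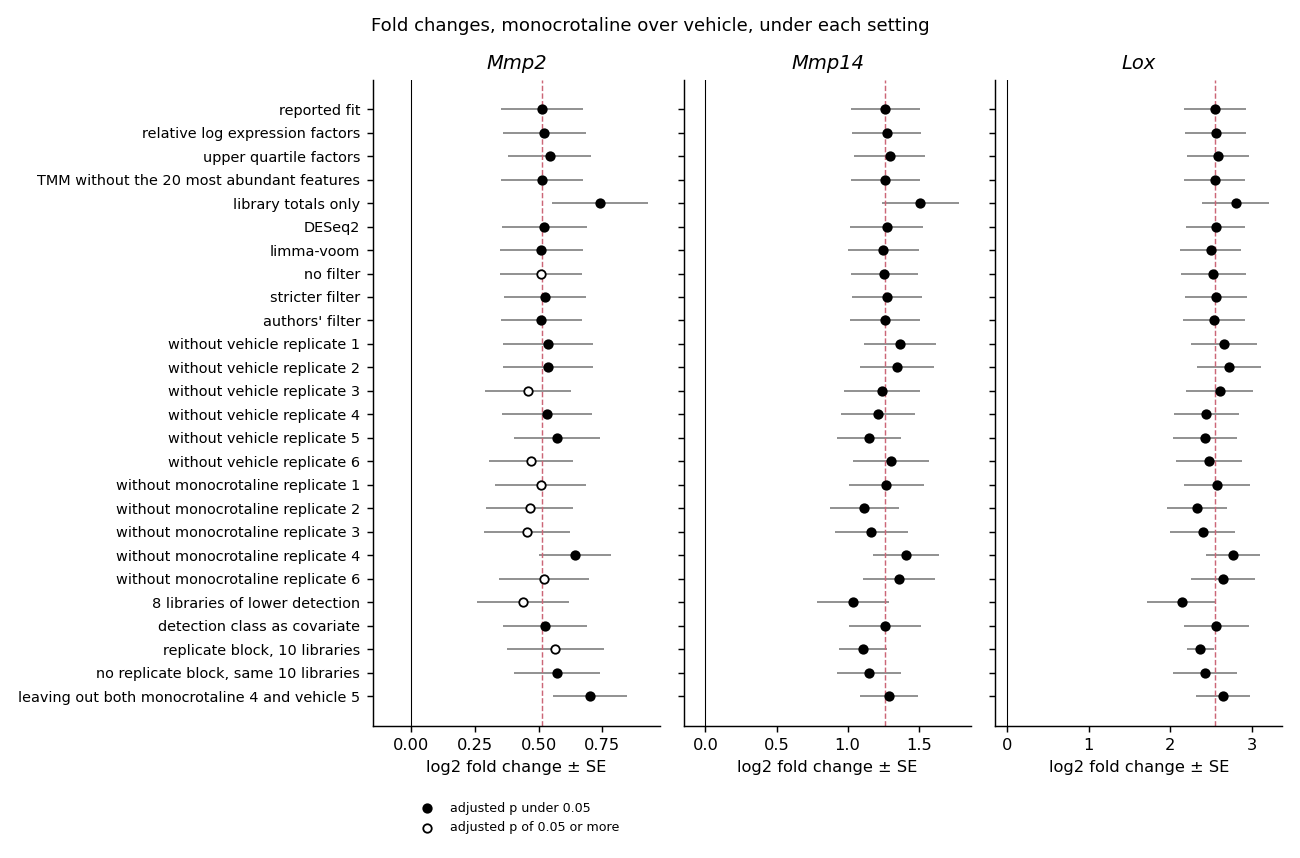
Log2 fold change of monocrotaline over vehicle ± SE (horizontal) for Mmp2, Mmp14 and Lox under the reported fit and 25 other settings (vertical), with filled points where the adjusted p was under 0.05, open points where it was not, and the dashed line at the reported value. All points lie above zero, those of Mmp14 and Lox are filled throughout, and Mmp2 has 9 open points. The stricter threshold and the minimum-fold test are not drawn, and the fit without a replicate block repeats the omission of vehicle replicate 5.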

How the data were processed

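RNA of the right ventricle was sequenced as stranded, ribosomal-RNA-depleted libraries on an Illumina NextSeq, per the labels' protocols. HISAT2, StringTie, cutadapt, FastQC and bcl2fastq are named in the submitters' processing notes; the sources used here give no versions, genome build, annotation or counting strand. The authors deposited whole-number read counts with no normalization, and 0 columns belonged to other samples. They also deposited their own comparison with log2 fold changes, log2 CPM, p-values and FDR, per the file headers.

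The whole count table was fitted with edgeR 4.0.16 (R 4.3.3): quasi-likelihood test, robust estimates, TMM, filterByExpr defaults (minimum count 10, minimum total 15), no covariate, all 11 libraries, Benjamini-Hochberg adjustment over 15099 features. SE is the size of the log2 fold change divided by the root of F. CPM used total counts times the TMM factor; profile distances used log2 CPM with a prior count of 2. Mmp9 was tested by exact permutation. The text names the 6 given IDs and, since IDs carry no symbols, the 2 IDs nearest in profile to a called member. Members, lists and settings were chosen with earlier results of these data known. Planned ratios to Timp1 and Timp2 were replaced by ratios among measured members. No 2 libraries were copies: over 55 pairs, chi-square per degree of freedom was at least 15.5. On simulated counts for this comparison (14893 features), edgeR found 20% of 50 features simulated with a 1.5-fold change. At 2-fold it found 78.7% of 47, and at 4-fold 97.9% of 48. Of its 146 calls, 3 were false. The simulation changed a far smaller share of features than the 23.8% called in the real data. The adjustment is stricter in that case, so these rates need not hold for the measured genes. Alternatives were DESeq2 1.42.0, limma-voom (limma 3.58.1), other scalings, filters and thresholds, left-out libraries, a detection covariate and a replicate block.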

Additional observations from a re-analysis of the deposited data

Results flagged for a closer look

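For each measured gene and each ratio, the highest and the lowest library of a group were checked for a distance from the next library that was large against the range of the whole group. This rule picks about 1 in 20 groups by chance, and it picked 1 of the 14 examined. Mmp9 stood at 2.245 CPM in vehicle replicate 6, from 20 reads, against 0.662 CPM in the next vehicle library. Vehicle replicate 6 had reads in 30593 features, the highest number of the 11 libraries.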

How the results depend on the processing

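Of the 27 alternatives, an FDR of 0.01 and a minimum fold of 1.5 leave the fold changes as reported. The fit without a replicate block repeats the omission of vehicle replicate 5. Counting these, all 81 fold changes of Lox, Mmp14 and Mmp2 were positive, and 69 kept their side of the threshold. Lox did so in each, and Mmp14 in all but the test against a minimum fold of 1.5 (log2 fold change 1.265, adjusted p = 0.054). Mmp2 lost its call in that test and at an FDR of 0.01 (both 0.5143), and with no filter (0.5091). It also lost its call in the 8 libraries of lower detection (0.4398) and with the replicate block (0.5657). The same held without 6 of the single libraries, with values of 0.4543 to 0.641 over all 11 omissions. Library totals alone gave the largest values, 2.804 for Lox, 1.509 for Mmp14 and 0.7419 for Mmp2. The fit with no filter tested 33648 features, and the 8 libraries, the replicate block and the single omissions had fewer samples.

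The minimum fold left 1 member called, with 338 features higher and 140 lower. Counts of higher and lower features were 3541 and 986 with library totals alone, 905 and 582 at an FDR of 0.01, and 1087 and 653 in the 8 libraries; 971 were lower with no filter. The Mmp9 difference in mean CPM, monocrotaline minus vehicle, was −0.0762, turned to 0.0676 with library totals alone and 0.0261 in the 8 libraries, and ran from −0.365 to 0.239 over single omissions, with exact permutation p from 0.538 to 1. These Mmp9 values, the authors' filter and the fit without both monocrotaline replicate 4 and vehicle replicate 5 were added after seeing the data.

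Over all 15099 tested features, deviations from the group mean correlated at 0.06, −0.03, −0.21, 0.16 and −0.20 between vehicle and monocrotaline libraries of equal number. The reported fit did not pair these libraries. For Lox, however, the deviations had the same sign in each pair of equal number. They were 0.78 and 0.80 in replicate 2, and −0.55 and −1.14 in replicate 4. For Mmp14 and Mmp2 the signs differed in some pairs. The labels do not say whether equal numbers mark a pairing. With the replicate number as a block in the 10 libraries of matching number, log2 fold changes were 2.37 for Lox, 1.11 for Mmp14 and 0.5657 for Mmp2 (edgeR adjusted p = 0.0713), against 0.5727 (adjusted p = 0.0316) without the block. The block gave 1348 features higher and 1231 lower, against 1731 and 1441 without it. Mmp9 had 1 to 23 reads per library, and the other measured genes at least 125.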
